A study of Mus musculus with 2 samples.

Results

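Vascular endothelial growth factors (VEGFs) and angiopoietins are secreted ligands whose receptors sit mainly on endothelial cells. VEGF-A signals through VEGFR2 to drive endothelial growth and permeability, while angiopoietin 1 activates the receptor TIE2 and keeps vessels quiescent. In the lung, VEGF-A is made by the alveolar epithelium, which lies directly on a dense capillary bed. The 10 genes described here are the ligands Vegfa, Vegfb, Vegfc, Angpt1 and Angpt2 and the receptors Flt1, Kdr, Flt4, Tek and Tie1. They were chosen by symbol, as every probe of the deposited table annotated to one of them. All 10 were measured, by 21 of the 41174 probes, and they are 10 of the 19532 genes with a probe of a single symbol.

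The study set RNA of uncultured, untreated mouse lung cells, labelled with Cy3, against RNA of mouse embryonic fibroblasts (MEF), labelled with Cy5, on 2 two-colour Agilent arrays. MEF are fibroblasts derived from embryos, here grown in DMEM with fetal bovine serum and non-essential amino acids. The labels give no strain, age or number of animals and no MEF passage, and do not say that lung replicates 1 and 2 came from separate animals, so the p-values measure only the spread between these 2 arrays, which may be technical. The dyes were not swapped, so a dye effect cannot be told apart from a difference between lung and MEF.

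Values are log2 ratios of lung over MEF, so 1 is a 2-fold higher level in lung. The base and direction of the deposited ratio are not stated. Base 2 was taken from the size of the values, which reached 10.1 (as natural logarithms the folds would be larger), and the direction from lung-restricted genes. The 11 measured genes of that list (surfactant proteins, club cell secretory proteins and other lung epithelial genes) were all positive on both arrays, with means from 4.43 to 7.70. Every higher and lower below rests on that assumption, which the study's stated aim of showing lung relative to MEF makes likely. The median ratio of all genes was -0.22 for replicate 1 and -0.14 for replicate 2. Across genes, which are not independent replicates, the arrays correlated with r = 0.98. A gene was called when limma's test of its mean ratio against 0 gave a Benjamini-Hochberg adjusted p below 0.05 over all genes. This is a low bar here. It called 76.2% of all genes, 32.6% as higher and 43.6% as lower in lung, and 58.5% of 1043 olfactory and vomeronasal receptor genes, here called the sensory receptor genes, whose usual place of expression is the nose. Size is therefore given beside each call.

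Of the 10 genes, 7 were called higher in lung, against 32.6% of all genes, 2 were called lower, against 43.6%, and Flt4 was not called. The 5 receptors had a median log2 ratio of 2.81, the 5 ligands one of 0.37, and all genes one of -0.21. The receptor median is the mean of Kdr, whose probes lay far apart at 5.87 and -0.25. The groups overlapped, with the ligand Vegfa above the receptor Flt4, and their difference was not tested. In decreasing order the means were Tek, Tie1, Kdr, Flt1, Vegfa, Flt4, Angpt1, Vegfc, Angpt2 and Vegfb. By size, 5 genes (Tek, Tie1, Kdr, Flt1 and Vegfa) were at least 2-fold higher in lung on both arrays, as were 17.1% of all genes, and Vegfb was at least 2-fold lower on both, as were 15.4% of all genes. The same 5 genes lay above the central 95% of the sensory receptor genes on both arrays, as did 14.6% of all genes. The other 5 lay within it and none below it, where 8.91% of all genes lay. Tested with limma against a 2-fold change in place of 0, those 5 genes were called higher, against 14.1% of all genes, and 0 of the 10 were called lower, against 11.5%. At an unadjusted p below 0.05 that test also gave 0 lower. Among neighbours in this order, the arrays of Flt4 spanned the values of Angpt1, and those of the other neighbouring pairs did not overlap. A ratio compares lung with MEF for a gene and does not say which of the genes is more abundant.

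**Figure D1:**
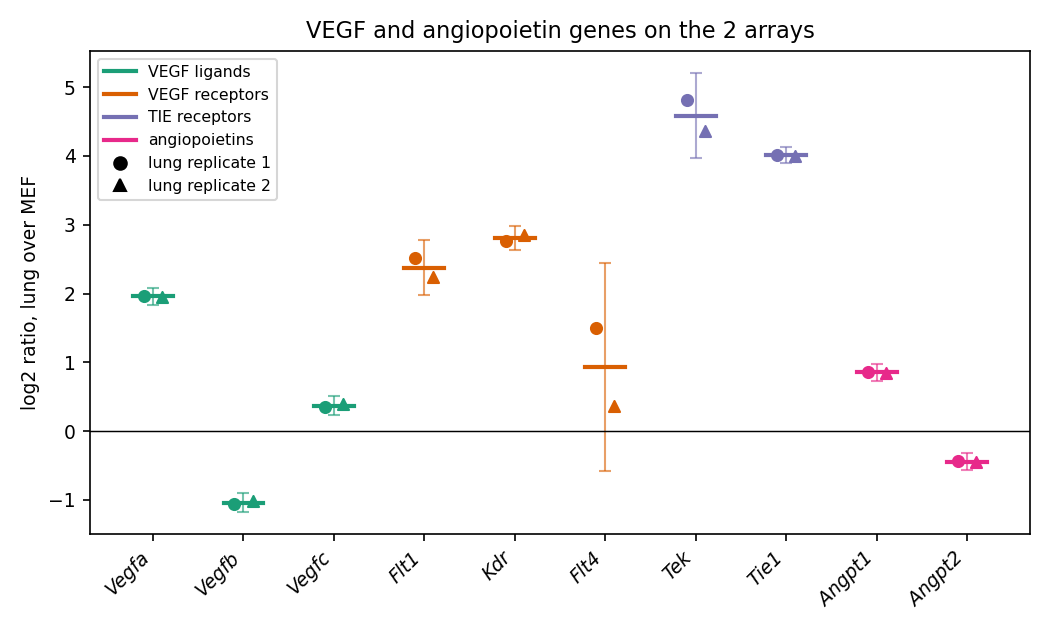
Log2 ratio of lung over MEF (vertical axis) for the 10 genes, grouped by role. Circles and triangles are the 2 arrays, the thick line is their mean (n = 2) and the bars are 95% confidence intervals from the limma fit. Tek and Tie1 stand highest, Flt4 has the widest interval, and Vegfb and Angpt2 lie below 0.

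The TIE receptors had the highest ratios by the mean over probes, although Kdr and Flt1 passed Tie1 when RefSeq probes alone were used. Tek encodes TIE2, the receptor tyrosine kinase that binds the angiopoietins. Its log2 ratio was 4.82 in replicate 1 and 4.36 in replicate 2, a mean of 4.59 ± 0.33 (SD, n = 2) or 24.0-fold (limma, Benjamini-Hochberg adjusted p = 0.00267). Tie1 encodes the related orphan receptor that pairs with TIE2 and modulates its signalling. Its only probe gave 4.020 and 4.005, a mean of 4.01 ± 0.01 (SD, n = 2) or 16.1-fold (limma adjusted p = 0.00161). Both arrays were far above 0 for both genes, and only 2.18% of all genes had a higher mean than Tek and 3.17% a higher mean than Tie1. In bulk RNA, more cells of a type and more RNA per cell cannot be told apart.

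The promoters of Tie1, Vegfa and Vegfb are shown because these genes span the observed range (one receptor far above 0, and a pair of related ligands on opposite sides of it) and because their RefSeq start is also the outer end of the gene. The 250 bases before the start are given 5′ to 3′ on the gene's strand, the minus strand in each case, from RefSeq on GRCm38.p6. They lie at chr4:118489850-118490099 (Tie1), chr17:46032378-46032627 (Vegfa) and chr19:6987652-6987901 (Vegfb). Capitals mark the ETS motif forms AGGAAG and CGGAAG and GC boxes (GGGCGG), searched on both strands.
Tie1: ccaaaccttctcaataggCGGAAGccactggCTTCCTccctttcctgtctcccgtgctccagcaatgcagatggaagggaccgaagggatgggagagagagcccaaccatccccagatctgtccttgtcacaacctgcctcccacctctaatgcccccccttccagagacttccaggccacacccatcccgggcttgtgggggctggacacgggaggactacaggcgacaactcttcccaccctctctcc
Vegfa: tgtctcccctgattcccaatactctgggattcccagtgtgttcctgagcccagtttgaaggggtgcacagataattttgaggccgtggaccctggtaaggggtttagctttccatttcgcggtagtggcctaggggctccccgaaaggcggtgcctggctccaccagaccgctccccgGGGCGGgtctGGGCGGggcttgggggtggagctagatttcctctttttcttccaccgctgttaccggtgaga
Vegfb: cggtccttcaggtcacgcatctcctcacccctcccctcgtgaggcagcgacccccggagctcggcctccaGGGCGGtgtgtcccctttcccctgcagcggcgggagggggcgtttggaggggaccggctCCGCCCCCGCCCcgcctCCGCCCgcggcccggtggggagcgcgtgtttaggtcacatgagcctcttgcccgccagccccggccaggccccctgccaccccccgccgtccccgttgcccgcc

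ETS factors are a family of transcription factors with known roles in endothelial genes, and GC boxes are bound by SP1-like factors. The Tie1 window held 1 match to each of these ETS forms and 0 GC boxes. The Vegfa and Vegfb windows held 2 and 4 GC boxes and 0 matches to these ETS forms. Other ETS sequences were not searched. Of the 10 genes, 8 had a window in the RefSeq table, 9 windows in all because Vegfa has 2 starts. AGGAAG occurred in 2 of the 9 windows (Tie1 and Flt1) and in 29.5% of 32851 mouse windows of the same length. CGGAAG occurred in 1 of the 9 and in 13.6% of all, and the GC box in 7 of the 9 and in 32.7% of all. Of the hypoxia response core, only the form ACGTG was searched. It was found in the window of the inner Vegfa start, among the 9, and in 16.6% of all windows. A match describes letters only, and in Kdr, Flt1 and Tek the table's start lies inside the gene's outer end.

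Among the VEGF receptors, Kdr and Flt1 were higher in lung and Flt4 was not called. Kdr encodes VEGFR2, the main signalling receptor for VEGF-A. It had log2 ratios of 2.76 and 2.85, a mean of 2.81 ± 0.07 (SD, n = 2) or 6.998-fold (limma adjusted p = 0.00167). Flt1 encodes VEGFR1, which binds VEGF-A and VEGF-B and has a soluble form that acts as a decoy. It had ratios of 2.52 and 2.23, a mean of 2.38 ± 0.20 (SD, n = 2) or 5.20-fold (limma adjusted p = 0.00331). The arrays differed little against the distance from 0 for both genes.

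Flt4 encodes VEGFR3, the receptor for VEGF-C and VEGF-D that is best known from lymphatic endothelium. Its single probe gave 1.50 for replicate 1 and 0.36 for replicate 2, so both arrays were positive but 1.14 apart. Only 1.37% of all genes differed more between the arrays. The mean of 0.93 ± 0.81 (SD, n = 2) had a 95% confidence interval from -0.58 to 2.44 and was not called (limma adjusted p = 0.141). After subtraction of each array's median the mean became 1.11 and was called (adjusted p = 0.0298), so this call depends on the centring. Lymphatic markers were higher in lung in 5 of 6 genes, against 32.6% of all genes, with a median of 2.44. The highest were Lyve1 (5.55) and Ccl21a (5.09), and the lowest Reln (1.00, probes from -0.74 to 3.98) and Prox1. Prox1, the defining transcription factor of lymphatic endothelium, was at -0.08 and not called, with probes from -0.95 to 1.10. Its mean turned positive under both centrings. When the arrays were centred on the sensory receptor genes, all 6 markers were called higher, beside 9119 of all 19532 genes. The part of these markers in the Flt4 ratio was not tested.

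The ligands went both ways, and of them Vegfa lay farthest from 0. Vegfa was at 1.97 and 1.95, a mean of 1.96 ± 0.01 (SD, n = 2) or 3.89-fold higher in lung (limma adjusted p = 0.00167). Vegfb encodes VEGF-B, a ligand of VEGFR1 linked to fatty acid handling in endothelium and muscle. It was lower in lung, at -1.06 and -1.02, a mean of -1.04 ± 0.03 (SD, n = 2) or 2.05-fold (limma adjusted p = 0.00251). Both arrays put these related ligands on opposite sides of 0.

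Vegfc, the lymphatic growth factor, was at 0.35 and 0.40, a mean of 0.37 ± 0.04 (SD, n = 2) or 1.29-fold (limma adjusted p = 0.0107). Angpt1, the TIE2 agonist made mainly by mesenchymal and mural cells, was at 0.86 and 0.85, a mean of 0.85 ± 0.01 (SD, n = 2) or 1.81-fold higher (limma adjusted p = 0.00282). Angpt2, which is made by endothelial cells and can antagonise TIE2, was at -0.43 and -0.45, a mean of -0.44 ± 0.01 (SD, n = 2) or 1.36-fold lower (limma adjusted p = 0.00671). For these 3 ligands the arrays were nearly equal, but all 3 ratios lay within the range of the sensory receptor genes, as did that of Vegfb. When the arrays were centred on those receptor genes, Angpt2 moved to -0.03 and was no longer called (adjusted p = 0.507).

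The size of the receptor ratios depended on the probe. Of the 10 genes, 6 had several probes, and 16 of the 21 probes were annotated to a RefSeq mRNA. The other 5 were not, and are called clone probes here. Kdr had one of each. Its RefSeq probe gave 5.89 and 5.84, a mean of 5.87 or 58.4-fold, and its clone probe gave -0.37 and -0.13 (mean -0.25). The mean of 2.81 thus averages a probe far above 0 and a probe that was not called (adjusted p = 0.107 over all probes). Tek had the same pattern to a lesser degree, with its RefSeq probe at 7.91 and 6.99 (mean 7.45, 175-fold) and its clone probe at 1.73 and 1.72 (mean 1.73), both called higher. The distance between a gene's probes was 6.12 for Kdr and 5.72 for Tek, and only 0.435% and 0.740% of the 8511 genes with several probes had a larger one.

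Flt1 had 5 probes that spread from 4.44 to -0.31 in their means. Its RefSeq probes lay at 4.44 (4.47 and 4.42) and 4.09 (4.06 and 4.13). Of its clone probes, one lay at 2.55 (2.57 and 2.52), one at 1.12 (1.55 and 0.68) and one at -0.31 (-0.05 and -0.58). The first was called higher and the others were not (adjusted p = 0.0710 and 0.236). All 5 clone probes of Kdr, Tek and Flt1 lay below all 4 RefSeq probes of these genes. The transcript region that each probe detects was not analysed here, so soluble and full-length forms cannot be told apart.

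A choice of genes by a high value on one kind of probe favours a lower value on the other kind. How far this applies to Kdr, Tek and Flt1 was not tested. Of 3423 genes with RefSeq and other probes, 100 had a RefSeq mean of 4 or more, Kdr, Tek and Flt1 among them, and in 66 of these the other probes lay at least 2 lower. In the reverse choice, 52 genes had a mean of 4 or more on the other probes, and in 28 of these the RefSeq probes lay at least 2 lower. The median difference, RefSeq minus other, was 3.26 in the first choice, -2.19 in the reverse choice and -0.36 over all 3423 genes. With RefSeq probes alone, the means were 5.87 for Kdr, 7.45 for Tek and 4.27 for Flt1.

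Probes of the ligands differed as well, although all of theirs were annotated to RefSeq mRNAs. Of 4 Vegfa probes, 3 agreed closely at 2.76, 2.58 and 2.42, and the other lay at 0.08 and was not called (adjusted p = 0.206). The Vegfb probes lay at -1.81 and -0.27, both called lower, and the Angpt1 probes at 1.20 and 0.51, both called higher. The 2-fold lower level of Vegfb on both arrays thus rests on one of its 2 probes. Fitted one by one, 13 of the 21 probes were called higher, against 32.2% of all 32664 probes, 3 were called lower, against 43.0%, and 5 were not called.

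**Figure D2:**
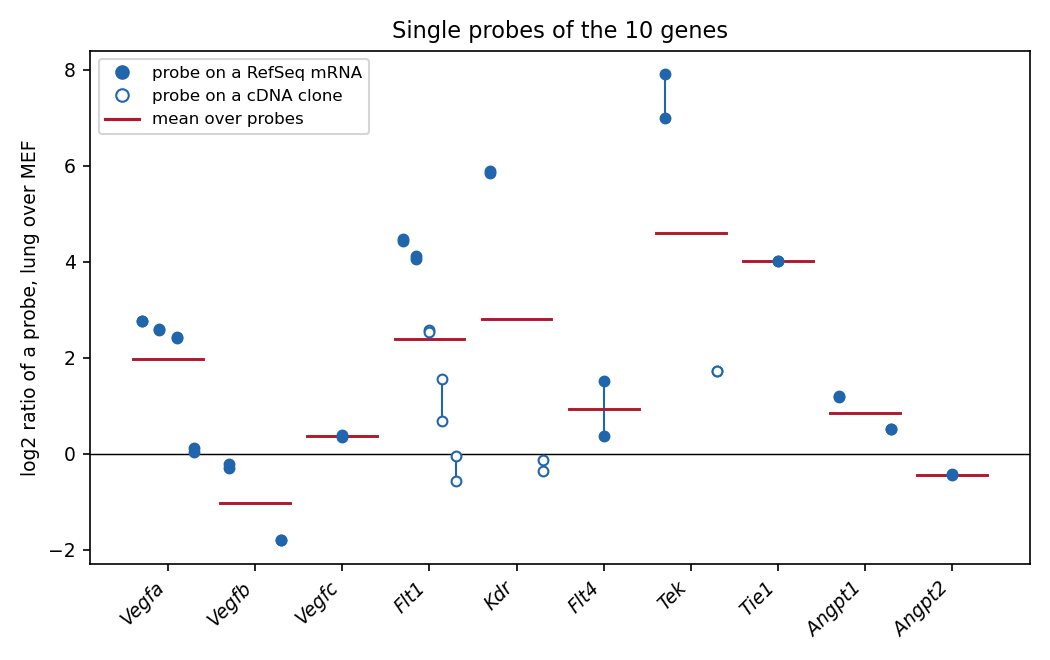
Log2 ratio of lung over MEF (vertical axis) of each of the 21 probes on both arrays, joined by a line. Filled points are probes annotated to a RefSeq mRNA, open points (cDNA clone in the key) the other probes, and the red line is the gene's mean. The open points of Flt1, Kdr and Tek lie below the filled ones.

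Markers of blood vessel endothelium were high in the same samples. All 10 were called higher and were at least 2-fold higher on both arrays, as were 32.6% and 17.1% of all genes. Their median was 4.57 and their range from 3.07 to 7.95. The vascular cadherin Cdh5 (7.95) and the tight junction gene Cldn5 (6.09) were highest, and the endothelial surface gene Ecscr (3.07) and the adhesion gene Pecam1 (3.19) lowest. Tie1 and Tek lay inside the range of these markers, which rests on means over all probes, and Kdr (2.81) and Flt1 (2.38) lay below it. With RefSeq probes only, Kdr was at 5.87 and Flt1 at 4.27, which is not the measure used for the markers. Alveolar type 1 markers, from a cell type known to make VEGF-A, were higher in 5 of 6 genes (median 5.36), with Hopx at 6.12, Akap5 at 6.06, Rtkn2 at 4.74 and Pdpn lower at -1.27. The part of these cells in the ratios of the ligands and receptors was not tested.

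Other possible sources of these transcripts differed too. Pericyte and smooth muscle markers split, with 4 higher and 6 lower of 10 and a median of -1.17. Over all genes, 32.6% were called higher and 43.6% lower. Kcnj8 (3.17) and Myh11 (1.80) were highest, and Tagln (-2.89) and Rgs5 (-2.58) lowest. Fibroblast markers were lower in 6 of 8 (median -3.04), with Col1a1 at -7.62 and Col1a2 at -5.52. Dcn was at 0.99 and Pdgfra at 0.36, the latter with probes at -0.77 and 1.50. All 4 measured platelet markers were higher (median 3.08), from Gp9 (6.14) and Ppbp (5.03) to Pf4 (1.14) and Itga2b (0.46). All 5 monocyte markers were higher (median 1.74), from Ccr2 (5.89) and Ly6c2 (4.75) to F13a1 (1.53) and Fcgr4 (0.61). Platelets carry angiopoietin 1 and VEGF proteins and monocytes express Flt1, and their part in these ratios was not tested.

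The remaining ligands, co-receptors and processing partners of the pathway were mostly lower in lung, with a median of -0.67. Of these 9 genes, 3 were called higher and 6 lower, against 32.6% and 43.6% of all genes. The exception in size was Ptprb, which encodes the endothelial phosphatase VE-PTP that dephosphorylates TIE2. It was at 5.72 and 6.04, a mean of 5.88 ± 0.23 (SD, n = 2) or 58.9-fold higher (limma adjusted p = 0.00176), with its probes at 7.05 and 4.71. Vegfd, the second ligand of VEGFR3, was at 0.28. The co-receptors neuropilin 1 and 2 differed, with Nrp1 at 0.26 (probes from -0.70 to 0.92) and Nrp2 lower at -1.25.

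Angpt4, a further angiopoietin gene, was the lowest of this list at -3.73 and -3.13, a mean of -3.43 ± 0.43 (SD, n = 2) or 10.8-fold (limma adjusted p = 0.00524). The VEGFR1 ligand placental growth factor (Pgf) was at -0.95. The VEGF-C processing genes Ccbe1 and Adamts3 were at -0.67 and -0.84, and the matrix gene Svep1, needed for lymphatic growth, at -0.66 with probes on both sides of 0. The angiopoietin-like genes encode structural relatives with other receptors. Of 4 measured, 3 were lower, against 43.6% of all genes, with Angptl1 at -3.61, Angptl6 at -2.80 and Angptl7 at -1.26. Angptl4 was at -0.10 and not called.

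Genes of signalling below the receptors lay on both sides of 0, with a median of 0.03 where all genes had one of -0.21. Of 24 measured, 8 were called higher, against 32.6% of all genes, 9 lower, against 43.6%, and 7 not. Nos3, the endothelial nitric oxide synthase, stood apart at 3.16 ± 0.01 (SD, n = 2) or 8.96-fold (limma adjusted p = 0.00161). Rac1, a small GTPase of cell migration (0.80), and Foxo1, the transcription factor restrained by TIE2 signalling through AKT (0.79), followed. The lowest were the kinase genes Akt1 (-1.15) and Map2k1 (-1.11) and the adaptor gene Shc1 (-0.99). The balance depended on centring, with 15 higher and 6 lower when the arrays were centred on the sensory receptor genes. That centring called 9119 of all genes higher and 5225 lower.

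Genes known to be induced by VEGF in endothelial cells split, with 5 of 10 higher and 4 lower, against 32.6% and 43.6% of all genes. Their median was 0.01. Pdgfb, the growth factor that recruits pericytes (4.43, probes at 6.32 and 2.53), was at least 2-fold higher on both arrays. So were Esm1, a secreted proteoglycan of tip cells (4.01 ± 0.05, SD, n = 2), and the Notch ligand gene Dll4 (2.80). The chemokine receptor gene Cxcr4 (1.45, probes at 2.59 and 0.32) was also at least 2-fold higher on both arrays. Apln, a peptide ligand of tip cells, was at 0.69 with probes from -0.50 to 2.34. The basement membrane gene Nid2 (-3.80), the netrin receptor gene Unc5b (-3.21) and the immediate early genes Nr4a1 (-1.31) and Egr3 (-1.22) were lower. Rcan1 was at -0.68 and not called (limma adjusted p = 0.0576).

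Of the genes for the alpha subunits of the hypoxia-inducible factors, which control Vegfa transcription, Epas1 was higher in lung, Hif1a lower, and Hif3a was at -0.01 and not called. Epas1, which encodes HIF-2 alpha and is abundant in endothelium and alveolar epithelium, was at 5.55 and 5.57, a mean of 5.56 ± 0.02 (SD, n = 2) or 47.2-fold higher (limma adjusted p = 0.00161), and its 3 probes ranged from 2.50 to 7.68. Hif1a, which encodes HIF-1 alpha, was at -2.62 and -2.63, a mean of -2.62 ± 0.01 (SD, n = 2) or 6.17-fold lower (limma adjusted p = 0.00163), on a single probe. Of the 9 genes of this list 2 were higher and 4 lower, against 32.6% and 43.6% of all genes. The other lower ones were Egln3 (-2.45), Egln1 (-0.77) and Vhl (-0.15). The Vhl mean turned positive under both centrings, as did those of Hif3a and Egln2, which were not called. The balance was 3 higher and 3 lower with the arrays centred on their medians, where 7496 of all genes were called higher and 7128 lower. It was 6 higher and 3 lower with centring on the sensory receptor genes, where 9119 of all genes were called higher and 5225 lower. Hif1an was higher at 0.44, but its probes ranged from -1.62 to 2.48.

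Of 10 other hypoxia targets, 6 were lower and 3 higher, against 43.6% and 32.6% of all genes, with a median of -0.72. The lowest were adrenomedullin (Adm, -2.25), the collagen hydroxylase subunit P4ha1 (-1.58) and lactate dehydrogenase A (Ldha, -1.02), and the highest was Ankrd37 (1.19). Ndrg1 (0.48) and the demethylase gene Kdm3a (0.42) were also higher. Vegfa, itself a hypoxia target, had a higher mean than each of these 10.

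**Figure D3:**
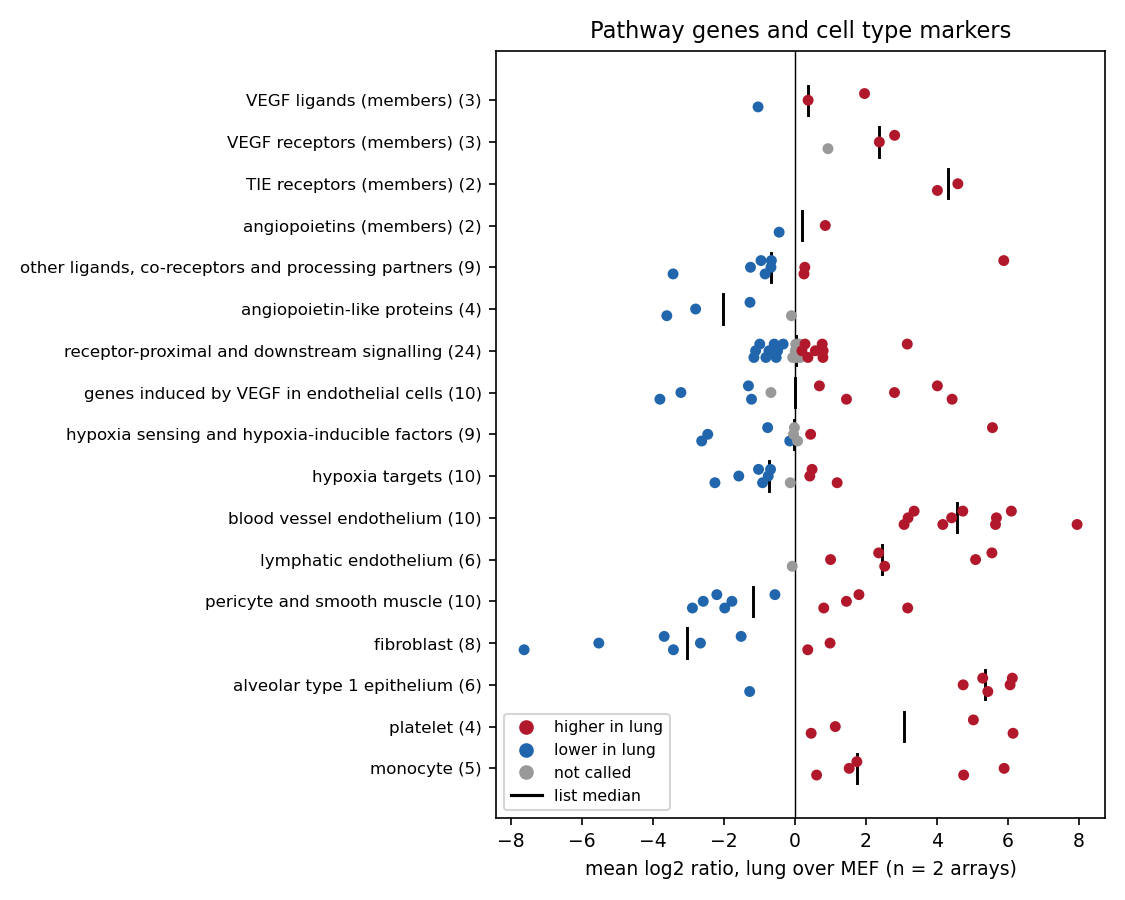
Mean log2 ratio of lung over MEF (horizontal axis, n = 2 arrays) of each gene in the pathway and marker lists, with the number of genes measured in parentheses. Red points were called higher, blue lower and grey not called, and black bars are list medians. Blood vessel endothelium (median 4.57) lies wholly to the right of 0, while the signalling genes (median 0.03) lie on both sides of 0.

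The genes most alike in pattern were taken as those at the smallest distance in the 2 log2 ratios, over 2 arrays only. For Tek, the highest of the 10 genes, they were Ngp (4.88 and 4.38), Sox13 (4.93 and 4.39) and Prom1 (4.89 and 4.49). For Vegfb, the lowest, they were Sgcd (-1.06 and -1.01), Atp23 (-1.06 and -1.02) and Krtap15 (-1.06 and -1.01). With 2 values per gene this likeness is that of a single ratio and its spread.

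**Figure D4:**
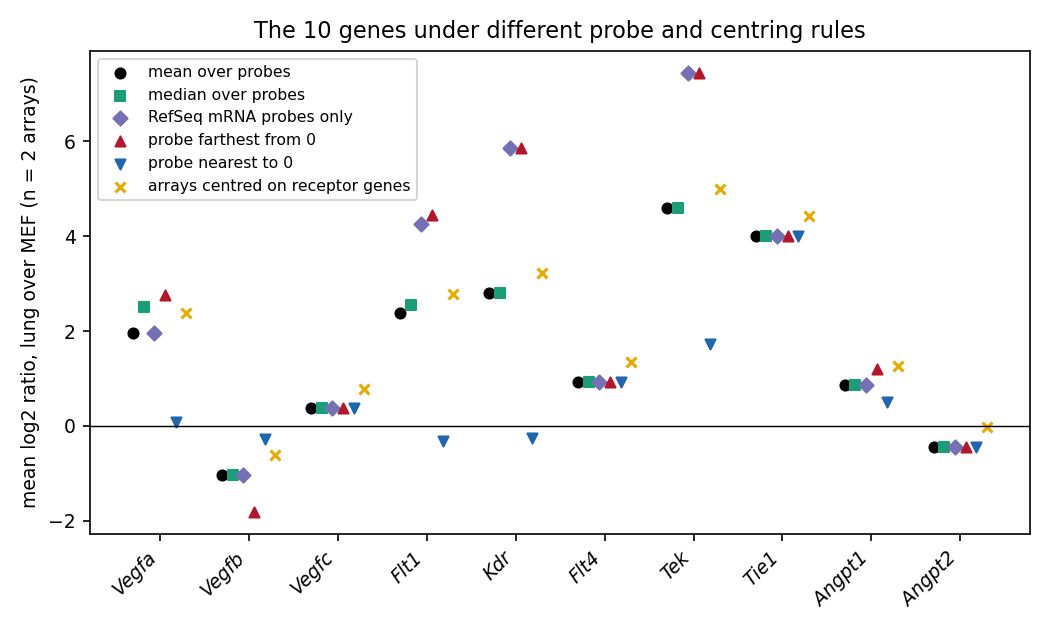
Mean log2 ratio of lung over MEF (vertical axis, n = 2 arrays) of the 10 genes under different rules for combining probes and with the arrays centred on olfactory and vomeronasal receptor genes. Kdr ranges from -0.25 to 5.87 with the choice of probe, whereas Tie1 and Vegfc have a single probe and move only with the centring.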

How the data were processed

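Each array carried lung RNA (Cy3) and MEF RNA (Cy5), per the labels. The authors deposited 1 table of log ratios per probe, here read as log2, made with Agilent Feature Extraction per the submitters' processing notes. The software version and its background and dye settings are not stated in the sources used here, and channel intensities and flags were not used, so ratios that rest on a dim or saturated channel are unknown and 2 arrays limit the precision. Probes were named from the platform's annotation (32664 with 1 symbol, 45 with several, 8465 with none), and 32524 of them matched RefSeq by Entrez identifier. Probes of a gene were averaged per array. The test of each mean ratio against 0 used limma 3.58.1 under R 4.3.3 (intercept-only model, eBayes, two-sided, Benjamini-Hochberg over 19532 genes, threshold 0.05). MEF was present only as the reference, so the spread of MEF cultures is not in the test. The fit had 1 residual degree of freedom per gene and 1.21 prior ones. The code was tested on simulated data with 200 of 19532 genes changed, whereas 76.2% of all genes were called here. Of 50 genes at each size, it recovered 0 at a log2 change of 0.5, 0 at 1, 14 at 2 and 36 at 4. It made 5 false calls.

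The 10 genes and all lists were chosen with earlier results of these data known. Named are the 10 genes, every gene of lists of up to 10 genes where useful, the 3 highest and 3 lowest of the longer list, the 2 highest and 2 lowest of each marker list, and the 3 genes nearest to the highest and lowest of the 10. Alternatives covered centring, moderation, the null hypothesis, the combination of probes, the threshold and leaving out an array.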

Additional observations from a re-analysis of the deposited data

How the results depend on the processing

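Tie1 kept its direction and its call under the alternatives of centring, moderation, null hypothesis and threshold. It has 1 probe, so the probe rules could not move it. With the probe nearest to 0, Kdr reversed to -0.25 and Flt1 to -0.31, Vegfa was at 0.082 and not called, and of the 10 genes 4 were called higher, 2 were at least 2-fold higher on both arrays and 0 at least 2-fold lower, beside 5392 of all genes called higher, and 2696 higher and 2347 lower by that size. The cause was not tested. Centring moved the median of all genes by 0.18 (array medians) or 0.42 (olfactory and vomeronasal receptor genes), and the share of calls higher in lung from 42.8% to 51.3% or 63.6%. Under the first, Flt4 was called at 1.11, and 2338 of all genes were at least 2-fold lower on both arrays. Under both centrings, 0 of the 10 genes were at least 2-fold lower on both arrays. Under the second, Angpt2 was at -0.029 and not called, 1 of the 10 genes was called lower, 5225 of all genes were called lower and 1754 were at least 2-fold lower. Without moderation, which leaves 1 degree of freedom, Tek (4.59), Flt1 (2.38), Vegfc (0.37) and Angpt2 (-0.44) lost their calls, which left 4 higher and 1 lower of the 10 and 2448 higher and 3164 lower of all genes. Tested against a 2-fold change, Angpt1 (0.85), Vegfc (0.37), Angpt2 (-0.44) and Vegfb (-1.04) lost theirs, which left 5 higher and 0 lower of the 10 and 2754 higher and 2242 lower of all genes. At a threshold of 0.01, Vegfc (0.37) was lost. Fitted per probe, a larger number of units, 13 probes of the 10 genes were higher, and 10516 and 14043 of all probes were higher and lower. This alternative, RefSeq probes only and natural logarithms were added after the data were seen. Read as natural logarithms, 4618 of all genes were at least 2-fold lower. Leaving out an array gives a value with no test, and for the 10 genes it moved the ratio by over 1.5 times only for Flt4 (0.36 without replicate 1 and 1.50 without replicate 2). No paired analysis was possible because both samples belong to 1 group.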
